A study of Homo sapiens with 48 samples.

Results

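The genes described are 10 regulators and effectors of canonical WNT signalling: DACT1, CXXC4, AXIN2, LEF1, TCF7, TCF7L2, NKD1, NKD2, ZNRF3 and RNF43, out of 58870 genes counted. They were chosen by name as modulators of the pathway and as its TCF/LEF transcription factors, with earlier results of these data known. For DACT1 and CXXC4 the choice also rested on their rise with FHT-1015, DACT1 at 4 h and CXXC4 at 24 h, so their values in the FHT-1015 experiments, the DMSO libraries included, are given as a description with no test. The study holds 48 RNA-seq samples, 16 groups of 3 biological replicates each, from 3 cell lines of uveal melanoma, a cancer of eye melanocytes. Lines 92-1, MEL202 and MP41 were each grown with FHT-1015, which inhibits SMARCA4 and SMARCA2, the ATPase subunits of BAF chromatin remodellers, or with the solvent DMSO alone, for 4 h and for 24 h. A further experiment set IDE196, which inhibits protein kinase C, against DMSO in line 92-1 at the same times, with control samples of its own (replicates numbered 4 to 6). The labels give the genotype of every line as WT and name no dose. Each line is 1 cell line, so differences between the lines are differences between these 3 cultures. Because the cultures were sequenced in bulk, fewer cells with a transcript and less transcript per cell cannot be told apart.

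In canonical WNT signalling, a WNT ligand binds a Frizzled receptor and an LRP coreceptor at the cell surface, and beta-catenin escapes the destruction complex that otherwise marks it for degradation. Beta-catenin then enters the nucleus and binds TCF/LEF factors, which sit on DNA and act as repressors with TLE corepressors when beta-catenin is absent. The pathway is held in check at several levels. ZNRF3 and RNF43 are membrane ubiquitin ligases that remove Frizzled receptors. DACT1, CXXC4, NKD1 and NKD2 bind Dishevelled, the adaptor that relays the receptor signal, and AXIN2 is a scaffold of the destruction complex. AXIN2, LEF1, TCF7, NKD1, ZNRF3 and RNF43 are also known as transcriptional targets of the pathway in many cell types. In the melanocyte lineage, WNT signals act in the specification of melanocytes from the neural crest.

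A sample had 11394088 to 32317711 reads in genes, and between 17592 and 27150 genes had a read. The fewest genes were seen in MEL202 after 4 h of FHT-1015 (replicate 2). The spread between replicates, as edgeR's biological coefficient of variation, was widest in MEL202 (0.294), followed by MP41 (0.217), and was 0.117 and 0.112 in the FHT-1015 and IDE196 experiments of 92-1. Replicate 2 of MP41 in DMSO at 24 h stood apart in several members: CXXC4 was 0.522 CPM there against 2.65 and 6.06 in the other 2 replicates, and TCF7, NKD1, NKD2, ZNRF3 and RNF43 were each at their highest of that group. Of 7 melanocyte lineage markers the summed level ran from 2748 to 23060 CPM over the 48 libraries. The sums of 3 leukocyte markers (0 to 4.57 CPM), 3 endothelial markers (0 to 1.71 CPM), 3 fibroblast markers (0.373 to 9.05 CPM) and 3 epithelial markers (0.229 to 24.2 CPM) were low. The epithelial sum was at least 2.19 CPM in every library of the IDE196 experiment and at most 1.23 CPM in those of 92-1 in the FHT-1015 experiment. With FHT-1015 at 24 h the melanocyte sum was 4854 to 5320 CPM in 92-1 against 18990 to 23060 CPM in DMSO, 2748 to 3187 against 7880 to 9597 CPM in MEL202, and 5369 to 5934 against 11640 to 12630 CPM in MP41. At 4 h in 92-1 the melanocyte sum was 15650 to 17840 CPM with FHT-1015 against 20240 to 21400 CPM in DMSO. In MEL202 and MP41 the groups overlapped at 4 h. The fibroblast sum was higher with FHT-1015 at 24 h in 92-1, at 3.21 to 5.21 against 0.907 to 1.04 CPM. In MEL202 it was 2.56 to 4.26 against 0.602 to 1.72 CPM. In MP41 the groups overlapped (1.62 to 3.25 against 1.28 to 2.04 CPM). With FHT-1015 at 24 h, 2 of the 3 fibroblast markers had a mean under 1 CPM in each line. The highest fibroblast sum, 9.05 CPM, was in a DMSO library of 92-1 at 4 h in the IDE196 experiment. The part of these marker differences in the results for the members was not tested.

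Promoter windows of RefSeq (GRCh38.p14, 250 bases before to 50 after a transcript start, 5′ to 3′ on the gene's strand) were matched for 7 of the 10 members; AXIN2, NKD1 and ZNRF3 had no entry. The windows of DACT1, CXXC4 and TCF7L2, which were higher with FHT-1015, and of NKD2, which was lower, are shown. Their treated libraries lay apart from DMSO in 1 direction in each line, at 4 h for DACT1 and at 24 h for the others. For DACT1 and CXXC4 this rise was part of their choice. Where a gene had several windows, the window holding the starts of most protein-coding GENCODE transcripts was taken. Capitals mark matches, on either strand, of CTTTGA (the core that TCF/LEF factors bind), ACAAAG (SOX core), TGANTCA (AP-1), CATGTG (an E-box that MITF can bind) and GGGCGG (GC box).
DACT1 (chr14:58633811-58634110, plus strand): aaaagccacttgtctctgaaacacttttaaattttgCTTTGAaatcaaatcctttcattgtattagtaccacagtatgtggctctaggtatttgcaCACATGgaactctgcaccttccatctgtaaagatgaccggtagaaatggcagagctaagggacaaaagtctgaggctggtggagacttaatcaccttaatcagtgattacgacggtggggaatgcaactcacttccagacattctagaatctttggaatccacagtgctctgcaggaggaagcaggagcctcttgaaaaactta
CXXC4 (chr4:104494845-104495144, minus strand): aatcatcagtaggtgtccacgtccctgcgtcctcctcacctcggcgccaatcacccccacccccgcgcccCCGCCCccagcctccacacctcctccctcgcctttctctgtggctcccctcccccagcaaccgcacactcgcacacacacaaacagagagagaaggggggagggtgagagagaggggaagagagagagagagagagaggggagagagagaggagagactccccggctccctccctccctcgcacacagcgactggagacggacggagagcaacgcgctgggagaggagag
TCF7L2 (chr10:112949997-112950296, plus strand): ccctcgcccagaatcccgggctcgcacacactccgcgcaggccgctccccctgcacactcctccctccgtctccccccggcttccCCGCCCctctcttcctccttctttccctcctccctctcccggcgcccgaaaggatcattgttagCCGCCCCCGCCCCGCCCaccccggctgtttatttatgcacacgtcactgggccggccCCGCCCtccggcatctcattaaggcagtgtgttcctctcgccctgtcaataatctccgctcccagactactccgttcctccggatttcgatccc
NKD2 (chr5:1008552-1008851, plus strand): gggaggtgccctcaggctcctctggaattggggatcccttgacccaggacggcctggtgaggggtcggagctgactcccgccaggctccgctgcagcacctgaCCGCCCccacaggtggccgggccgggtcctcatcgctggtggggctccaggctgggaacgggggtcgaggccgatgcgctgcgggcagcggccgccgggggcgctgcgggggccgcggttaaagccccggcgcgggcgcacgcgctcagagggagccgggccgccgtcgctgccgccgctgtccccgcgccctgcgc
The DACT1 window held 1 CTTTGA match and 1 CATGTG match, and its GC content was 42.3% with 3 CpG dinucleotides. The 2 other DACT1 windows, at starts further downstream, had GC contents of 78.3% and 65.7% with 44 and 27 CpGs, and counts per gene do not show which start was used. CXXC4 (65.3% GC, 17 CpGs), TCF7L2 (65.7%, 25 CpGs) and NKD2 (77.0%, 35 CpGs) held GC boxes only, 1 in CXXC4, 5 in TCF7L2, some of which share a base, and 1 in NKD2. Of 34943 RefSeq windows of the same length, CTTTGA occurred in 12.9%, ACAAAG in 16.1%, TGANTCA in 7.72%, CATGTG in 11.1% and GGGCGG in 44.9%. These matches describe letters in the windows only.

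In DMSO the lines differed most in DACT1. The lowest, median and highest level of its 6 DMSO libraries were 0.4297, 0.829 and 1.17 CPM in 92-1. In MEL202 they were 4.91, 6.83 and 9.73 CPM, and in MP41 73.7, 89.6 and 102.5 CPM. The 3 lines do not overlap, and the mean in MP41 was 107-fold that in 92-1. RNF43 came next with a 14.4-fold range between lines, from 0.0582, 0.202 and 0.496 CPM in MEL202 to 1.03, 2.64 and 6.55 CPM in MP41. TCF7 spanned 10.2-fold, from 3.03, 3.65 and 4.47 CPM in MEL202 to 26.7, 33.4 and 65.2 CPM in MP41, with 92-1 between them at 14.6, 18.8 and 20.7 CPM. CXXC4 spanned 3.52-fold and NKD2 2.88-fold, both highest in MP41, and the other 5 members spanned 1.65- to 1.87-fold.

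Per kb of exon, ZNRF3 was the most abundant member in 92-1 (3.10 ± 0.155 CPM per kb, SD, n = 6) and in MEL202 (2.71 ± 0.681), and DACT1 in MP41 (19.8 ± 2.67). In 92-1 the order from the top was ZNRF3, TCF7L2, NKD2, TCF7, LEF1, NKD1, AXIN2, CXXC4, DACT1 and RNF43. TCF7L2 (2.62 ± 0.324) and NKD2 (2.49 ± 0.543) differed there by less than the larger of their SDs, as did CXXC4 (0.194 ± 0.0790) and DACT1 (0.185 ± 0.0533). In MEL202 the order was ZNRF3, NKD2, TCF7L2, LEF1, DACT1, AXIN2, TCF7, NKD1, CXXC4 and RNF43. ZNRF3 and NKD2 (2.37 ± 0.600), and TCF7L2 (1.75 ± 0.142), LEF1 (1.72 ± 0.235) and DACT1 (1.56 ± 0.410), lay as close to their neighbours, and so did TCF7 (0.372 ± 0.0512), NKD1 (0.313 ± 0.136) and CXXC4 (0.210 ± 0.0737). In MP41 it was DACT1, NKD2 (6.82 ± 2.73), ZNRF3 (4.46 ± 1.05), TCF7, TCF7L2, LEF1, CXXC4, AXIN2, RNF43 and NKD1. By the same measure each neighbour in the run of NKD2, ZNRF3, TCF7 (3.79 ± 1.42) and TCF7L2 (2.99 ± 0.615) lay within the larger SD there, and likewise in the run of LEF1 (0.920 ± 0.125), CXXC4 (0.684 ± 0.374), AXIN2 (0.665 ± 0.0993), RNF43 (0.420 ± 0.271) and NKD1 (0.340 ± 0.152). RNF43 was last in 92-1 and MEL202, with at most 13 reads in any library of these lines in the FHT-1015 experiment.

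**Figure D1:**
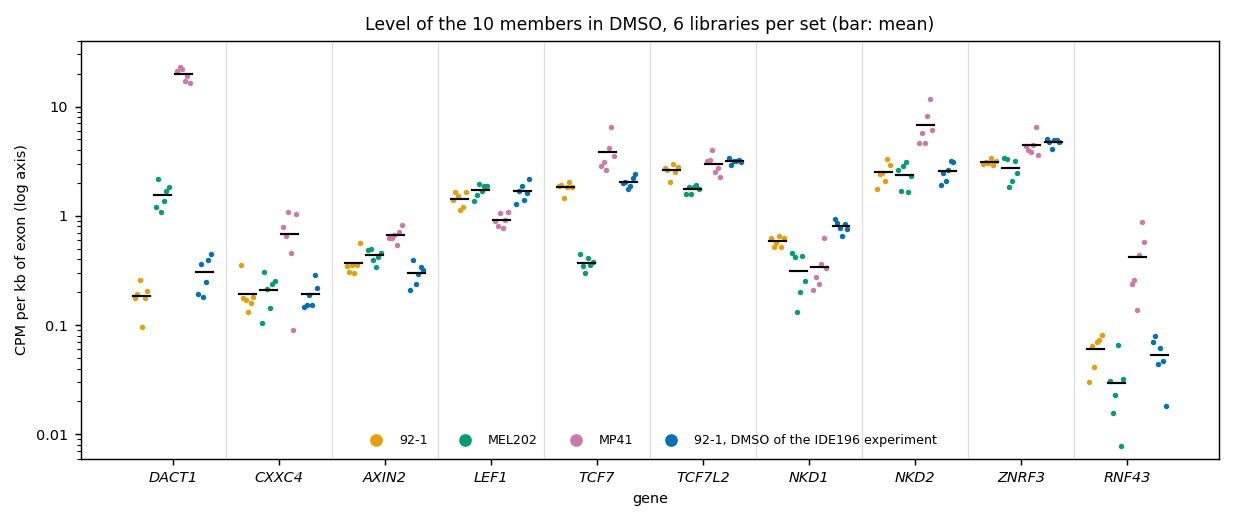
Level of each member in DMSO, in CPM per kb of exon on a log axis, with 6 libraries (4 and 24 h together) for each line and for the DMSO set of the IDE196 experiment; bars are means. DACT1, TCF7 and RNF43 separate the lines most, with MP41 highest for each.

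In the fit of all DMSO libraries (24 samples, 17286 genes tested), MP41 differed from 92-1 in 7 of 8 members tested, 5 higher and 2 lower, where 67.3% of all genes tested differed. MP41 differed from MEL202 in 7 of 8 members, 6 higher and 1 lower, against 58.3% of genes. Line 92-1 differed from MEL202 in 3 of 8, against 55.4% of genes. TCF7 was higher in MP41 than in MEL202 (log2 difference ± SE 3.30 ± 0.15, adjusted p 8.74e-15) and RNF43 was as well (3.58 ± 0.36, adjusted p 8.54e-09). For DACT1 the described log2 differences were 6.79 for MP41 over 92-1 and 3.67 for MP41 over MEL202, and for CXXC4 1.85 and 1.69. LEF1 went the other way and was lowest in MP41 (log2 difference from MEL202 -0.89 ± 0.16, adjusted p 2.89e-05). NKD1 was higher in 92-1 than in MEL202 (0.88 ± 0.22, adjusted p 0.00191) and lower in MP41 than in 92-1 (-0.81 ± 0.22, adjusted p 0.00275). The labels name no batch for the lines, and each line is its own set of libraries, so line and library set cannot be told apart.

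The 2 DMSO sets of 92-1, one beside FHT-1015 and one beside IDE196, differed in 2 of 8 members where 39.1% of genes differed. TCF7L2 (log2 difference of the IDE196 set 0.31 ± 0.11, adjusted p 0.0229) and ZNRF3 (0.65 ± 0.15, adjusted p 0.00143) were higher in the IDE196 set. The TCF7L2 call was lost without replicate 3 at 4 h or replicate 2 at 24 h of the first set or replicate 4 at 4 h of the second (adjusted p up to 0.0617), with library size alone and without the filter on low counts. Each drug is therefore set only against its own DMSO.

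Few members passed the test between the times in DMSO. Between 24 and 4 h in DMSO, 0 of the 7 members tested changed in 92-1 of the FHT-1015 experiment by edgeR and DESeq2 alike (0.344% of all genes changed, 1382 genes at an unadjusted p under 0.05), 0 of 7 in MEL202 by both tools (0.0% of genes, 330 at an unadjusted p under 0.05) and 0 of 10 in the IDE196 set by both (0.266%, 2214 genes). In MP41, 1 of 8 changed by edgeR where 2.59% of genes did, and 4 by DESeq2. This was RNF43, with 1.78, 1.96 and 1.03 CPM at 4 h and 3.31, 6.55 and 4.29 CPM at 24 h, a log2 change of 1.47 ± 0.31 (adjusted p 0.0339). This count rested on single libraries of MP41: leaving out DMSO replicate 3 at 24 h gave 5 members, and 0 were called without any of replicates 1, 2 and 3 of DMSO at 4 h, replicates 1 and 2 of DMSO at 24 h, replicate 2 of FHT-1015 at 4 h, or replicates 2 and 3 of FHT-1015 at 24 h.

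With FHT-1015 at 24 h, TCF7L2 rose and NKD2 and ZNRF3 fell in all 3 lines, AXIN2 rose and NKD1 fell in 92-1 and MP41, and LEF1 rose in 92-1 and MEL202 but fell in MP41. CXXC4 was higher in the 3 lines, and DACT1 in 92-1 and MEL202. At 4 h fewer members had moved, and calls were made in 92-1 alone. Calls are at an adjusted p under 0.05 (edgeR's quasi-likelihood test, Benjamini-Hochberg over all genes tested), and counts leave out DACT1 and CXXC4. In 92-1 at 4 h, 1 of 7 members tested rose, where 12.9% of all genes rose, and 2 of 7 fell, where 16.7% fell. At 24 h, 3 of 7 rose against 29.2% of genes, and 4 of 7 fell against 31.4%. In MEL202 at 4 h, 0 of 7 rose against 0.157% of genes and 0 of 7 fell against 0.522%; 1365 genes had an unadjusted p under 0.05, and DESeq2 called 2 members (AXIN2 and TCF7L2). At 24 h, 2 of 7 rose against 8.69% and 2 of 7 fell against 10.1%. The MEL202 count of 4 at 24 h dropped to 2 when DMSO replicate 1 or 3, or FHT-1015 replicate 2, of that time was left out. In MP41 at 4 h, 0 of 8 rose against 0.0708% and 0 of 8 fell against 0.154%, with 899 genes at an unadjusted p under 0.05, and DESeq2 called 0 members. At 24 h, 2 of 8 rose against 17.4% and 5 of 8 fell against 18.7%, and with only the 6 samples compared the total of 7 was 4. RNF43 had too few reads to be tested in the fits of 92-1 and MEL202 by themselves, and passed the filter on low counts only in the fits that also held MP41 or the IDE196 experiment.

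**Figure D2:**
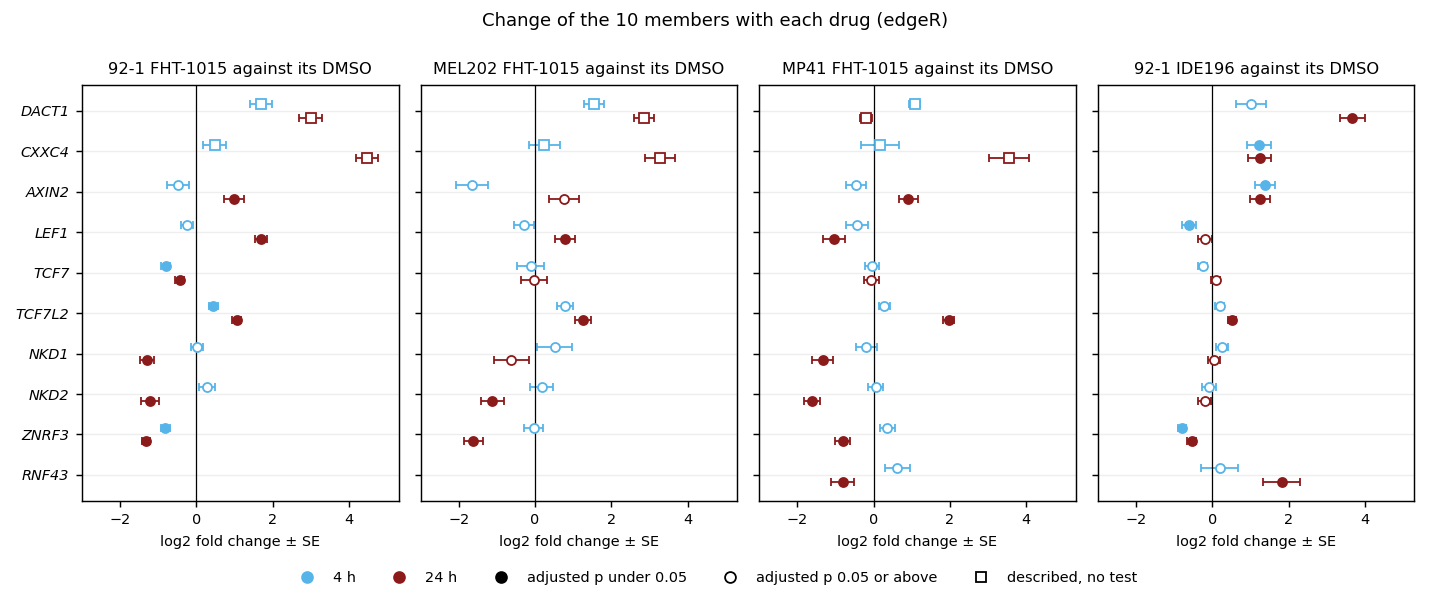
Log2 fold change ± SE of each member with each drug against its own DMSO, at 4 h (light blue) and 24 h (dark red); filled circles passed an adjusted p under 0.05, open circles did not, and squares mark DACT1 and CXXC4 with FHT-1015, which are described without a test. At 24 h with FHT-1015, TCF7L2 lies to the right of 0 and NKD2 and ZNRF3 to the left in each line, and LEF1 changes side in MP41.

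DACT1 (Dishevelled binding antagonist of beta-catenin 1, ENSG00000165617, GRCh38 14:58633967-58648321, plus strand) is a Dishevelled-binding adaptor that can lower or raise WNT signalling by context. In 92-1 it stood at 0.795, 0.8603 and 1.17 CPM in DMSO and 3.17, 2.73 and 3.42 CPM with FHT-1015 at 4 h, and at 0.4297, 0.798 and 0.921 against 7.18, 5.62 and 4.43 CPM at 24 h. In MEL202 the values were 5.41, 9.73 and 4.91 against 15.9, 20.04 and 22.8 CPM at 4 h and 6.11, 7.56 and 8.21 against 49.2, 52.8 and 54.4 CPM at 24 h. In both lines every treated library was above every DMSO library at both times, and the level was higher at 24 h than at 4 h. In MP41, where DACT1 was already abundant, the values were 94.03, 102.5 and 100 against 175.1, 224 and 227 CPM at 4 h and 77.2, 85.1 and 73.7 against 68.7, 53.3 and 74.7 CPM at 24 h. Treated and DMSO libraries of MP41 were apart at 4 h and overlapped at 24 h. The log2 fold changes with FHT-1015 were 1.69 ± 0.29 (SE), 1.55 ± 0.26 and 1.07 ± 0.15 at 4 h in 92-1, MEL202 and MP41, and 3.00 ± 0.30, 2.86 ± 0.27 and -0.20 ± 0.15 at 24 h. As a ratio, this was 7.98-fold in 92-1 and 7.24-fold in MEL202 at 24 h, from 9 to 15 reads per DMSO library in 92-1 and 130 to 273 in MEL202. The treated level of MEL202 at 24 h was still below that of MP41 in DMSO.

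IDE196 was no part of the choice of DACT1. At 24 h DACT1 was 1.12, 1.76 and 1.99 CPM in DMSO and 17.8, 18.6 and 28.4 CPM with IDE196, with no overlap. The rise was 12.8-fold (log2 fold change 3.67 ± 0.33, adjusted p 4.52e-08), the largest among the 10 members in that comparison. At 4 h the values were 0.857, 1.62 and 0.809 against 1.06, 3.45 and 2.42 CPM, which overlap (1.02 ± 0.40, adjusted p 0.093). It was called at 4 h without replicate 5 of DMSO or replicate 1 of IDE196 at 4 h, and when genes with low counts were kept. The 24 h effect exceeded the 4 h effect by a log2 difference of 2.65 ± 0.53 (adjusted p 0.00093). It was the 1 of 10 members whose IDE196 effect differed between the times, where 30.7% of genes did. DACT1 shares exons with LINC01500 on the same strand, and how such reads were assigned is not given.

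CXXC4 (ENSG00000168772, 4:104468312-104494901, minus strand) encodes a CXXC zinc finger protein, also called IDAX, which binds Dishevelled and holds back WNT signalling. At 4 h with FHT-1015 its libraries overlapped those of DMSO in each line. At 24 h it was 0.764, 0.921 and 1.04 CPM in DMSO and 26.3, 17.5 and 17.7 CPM with FHT-1015 in 92-1. In MEL202 it was 0.8396, 1.396 and 1.47 against 13.7, 9.45 and 12.4 CPM, and in MP41 2.65, 0.521 and 6.06 against 34.99, 33.4 and 40.7 CPM. The groups were apart in all 3 lines, and the treated levels were highest in MP41. The log2 fold changes at 24 h were 4.48 ± 0.29 (SE) in 92-1, 3.27 ± 0.39 in MEL202 and 3.55 ± 0.53 in MP41, which are 22.3-, 9.67- and 11.7-fold. The MP41 value came to 3.06 when replicate 2 of DMSO at 24 h was left out, the library with 9 reads of CXXC4, and to 4.47 when replicate 3 was, the library with 151. The DMSO libraries at 24 h held 15 to 17 reads of CXXC4 in 92-1 and 22 to 49 in MEL202, so these folds rest on few control reads. At 4 h the log2 fold changes were 0.47, 0.25 and 0.17.

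With IDE196, CXXC4 rose at both times. It was 0.857, 0.894 and 1.09 CPM in DMSO and 2.21, 2.8 and 1.67 CPM with IDE196 at 4 h, a log2 fold change of 1.22 ± 0.32 (adjusted p 0.0124). At 24 h it was 0.886, 1.66 and 1.27 against 2.52, 3.05 and 3.81 CPM (1.24 ± 0.30, adjusted p 0.00193). The groups did not overlap at either time, and the highest treated library was below the lowest FHT-1015 library of 92-1 at 24 h. The 4 h call was lost without replicate 2 of IDE196 at 4 h (adjusted p 0.063). CXXC4-AS1 lies over its exons on the other strand, and the library kit does not mark strand. Reads from the bases they share cannot be assigned by strand and may be missing from the CXXC4 count.

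**Figure D3:**
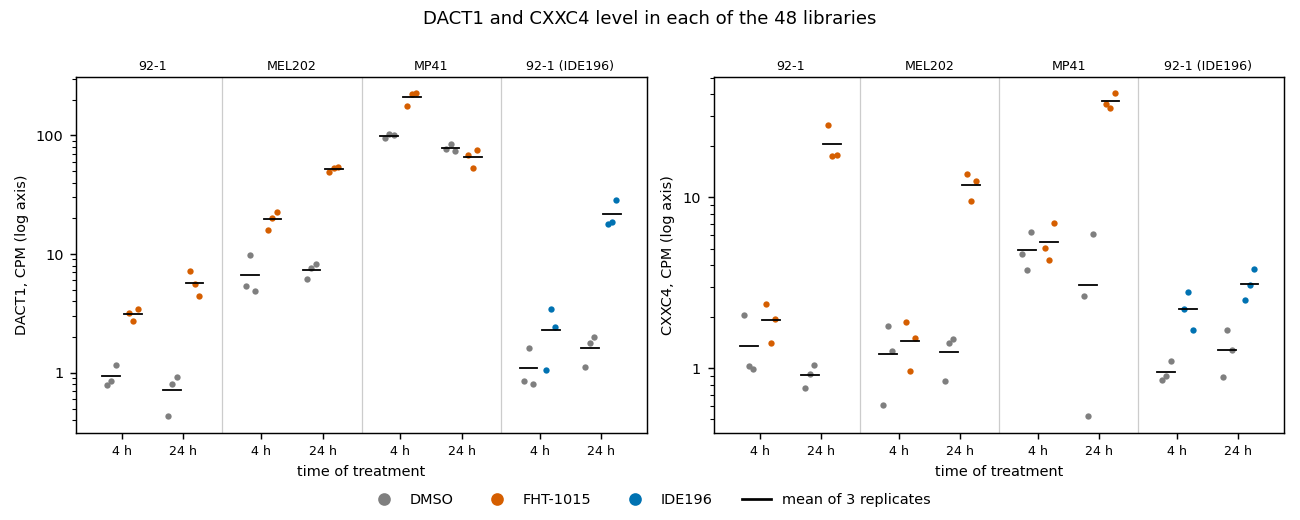
DACT1 (left) and CXXC4 (right) in CPM on a log axis in each of 48 libraries, by line, time and treatment; bars are means of 3 replicates. DACT1 with FHT-1015 lies above DMSO at both times in 92-1 and MEL202 and at 4 h only in MP41, and CXXC4 with FHT-1015 lies above DMSO at 24 h in each line.

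AXIN2 (ENSG00000168646, 17:65528563-65561647, minus strand) is the destruction complex scaffold most used as a readout of WNT signalling. Its levels were low, at 7 to 185 reads per library. In 92-1 at 24 h it was 1.57, 1.84 and 2.95 CPM in DMSO and 5.02, 3.42 and 4.31 CPM with FHT-1015, and the log2 fold change was 0.99 ± 0.26 (adjusted p 0.00373). In MP41 it was 2.79, 3.71 and 4.33 against 6.97, 7.19 and 5.42 CPM (0.91 ± 0.25, adjusted p 0.0112). In MEL202 the treated libraries, at 3.55, 3.79 and 3.35 CPM, also lay above DMSO at 1.79, 2.21 and 2.41 CPM, but the test was not passed (0.76 ± 0.38, adjusted p 0.201; 0.0282 with only the 6 samples compared). The MP41 call was lost with only the 6 samples compared (0.0566) and without replicate 1 of DMSO at 24 h (0.0569). At 4 h every FHT-1015 library lay below every DMSO library in each line, with log2 fold changes of -0.49 ± 0.28 (adjusted p 0.215), -1.64 ± 0.42 (adjusted p 0.116), and -0.47 ± 0.26 (adjusted p 0.989), none of which passed; DESeq2 gave 0.00515 in MEL202.

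The AXIN2 effect of FHT-1015 at 24 h differed from that at 4 h in the 3 lines: the log2 difference was 1.48 ± 0.38 (adjusted p 0.00531) in 92-1, 2.40 ± 0.57 (adjusted p 0.0222) in MEL202 and 1.37 ± 0.36 (adjusted p 0.0169) in MP41. In MEL202 this was lost without any 1 of the 3 DMSO or the 3 FHT-1015 libraries at 24 h (adjusted p up to 0.0663). With IDE196 AXIN2 rose at both times. It was 1.09, 2.04 and 1.24 CPM in DMSO against 3.57, 3.501 and 4.49 CPM at 4 h (1.38 ± 0.26, adjusted p 0.00123), and 1.54, 1.76 and 1.68 against 3.26, 4.52 and 4.58 CPM at 24 h (1.26 ± 0.26, adjusted p 0.000466). AXIN2 shares exons with the annotated gene AC004805.1 on the same strand, so reads there may be missing from its count.

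LEF1 (lymphoid enhancer binding factor 1, ENSG00000138795, 4:108047545-108168956, minus strand) had the lowest adjusted p of the 8 members tested for a difference of the FHT-1015 effect among lines at 24 h. In 92-1 at 24 h it was 6.06, 6.39 and 8.91 CPM in DMSO and 20.97, 22.3 and 26.5 CPM with FHT-1015, a 3.23-fold rise (1.69 ± 0.16, adjusted p 2.39e-07). In MEL202 it was 9.12, 10.1 and 10.1 against 11.3, 20.1 and 18.3 CPM (0.79 ± 0.26, adjusted p 0.0492). In MP41 it was 4.17, 4.93 and 5.78 against 1.296, 2.76 and 2.86 CPM, a 2.05-fold fall (-1.04 ± 0.29, adjusted p 0.0124). No treated library overlapped DMSO in any line. The difference among the lines was itself past the threshold (F-test over the 36 FHT-1015 experiment libraries, adjusted p 3.48e-06). The MEL202 call was at the threshold: it was lost without the filter on low counts (0.104) and without any 1 of 8 libraries (replicate 2 of DMSO and replicates 1 and 3 of FHT-1015 at 4 h, replicates 1, 2 and 3 of DMSO and replicates 2 and 3 of FHT-1015 at 24 h; up to 0.212). The MP41 call reached 0.0502 with only the 6 samples compared.

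At 4 h LEF1 had log2 fold changes with FHT-1015 of -0.25, -0.30 and -0.43 in 92-1, MEL202 and MP41, none past the test. With IDE196 at 4 h it fell, from 6.904, 9.02 and 10.1 CPM in DMSO to 5.47, 4.96 and 6.79 CPM (-0.61 ± 0.19, adjusted p 0.0405). That call was lost with the sum of the stranded columns, with only the 6 samples compared, and without any 1 of 6 libraries (replicates 5 and 6 of DMSO and replicates 1 and 2 of IDE196 at 4 h, replicate 5 of DMSO and replicate 2 of IDE196 at 24 h; adjusted p up to 0.154). At 24 h with IDE196 the groups overlapped (-0.19 ± 0.19, adjusted p 0.411). LEF1-AS1 lies over its exons on the other strand. Reads from the bases they share cannot be assigned by strand and may be missing from the LEF1 count.

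TCF7L2 (TCF4, the TCF/LEF factor of many epithelia, ENSG00000148737, 10:112950250-113167678, plus strand) rose with FHT-1015 at 24 h in each line. The values were 19.9, 16.9 and 18.98 CPM in DMSO against 38.2, 36.8 and 42.3 CPM in 92-1. In MEL202 they were 12.3, 12.97 and 11.9 against 31.1, 27.9 and 29.3 CPM, and in MP41 17.1, 18.6 and 15.2 against 67.8, 60.95 and 61.04 CPM. No groups overlapped, and the 3 treated groups held the highest libraries of their lines. The rise was 2.07-fold in 92-1 (1.05 ± 0.12, adjusted p 2e-06), 2.404-fold in MEL202 (1.27 ± 0.21, adjusted p 0.00083) and 3.903-fold in MP41 (1.96 ± 0.15, adjusted p 6.45e-07). The difference among the lines passed the test (adjusted p 0.0159), but not without the filter on low counts (0.146) or when the first FHT-1015 library of MP41 at 24 h was left out (0.0511).

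At 4 h TCF7L2 rose in 92-1, from 18.6, 17.8 and 13.7 to 22.2, 25.5 and 21.3 CPM (0.44 ± 0.12, adjusted p 0.013). That call was lost without replicate 3 of DMSO or replicate 2 of FHT-1015 at 4 h (up to 0.0776). In MEL202 the 4 h value was 0.78 ± 0.21 (adjusted p 0.137), with DESeq2 0.0142, and in MP41 0.28 ± 0.14 (adjusted p 0.925). With IDE196 it rose at 24 h, from 21.4, 21.9 and 21.1 to 28.1, 31.4 and 35.5 CPM (0.51 ± 0.11, adjusted p 0.000677), and was 0.19 at 4 h, not past the test. The TCF7L2 gene also overlaps the antisense transcript AL158212.2.

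TCF7 (TCF1, ENSG00000081059, 5:134114711-134151865, plus strand) passed the test with FHT-1015 in 92-1, where it fell at both times. At 4 h it was 19.03, 19.3 and 14.6 CPM in DMSO and 10.9, 10.2 and 9.49 CPM with FHT-1015 (-0.81 ± 0.12, adjusted p 0.000147). At 24 h it was 18.3, 20.7 and 18.6 against 14.8, 14.2 and 13.9 CPM (-0.44 ± 0.12, adjusted p 0.00578). In MEL202 and MP41 the treated libraries overlapped DMSO at both times, and the 4 log2 fold changes lay between -0.12 and -0.04. The difference of its FHT-1015 effect among the lines did not pass (adjusted p 0.477 at 4 h and 0.687 at 24 h). With IDE196 its values were -0.25 at 4 h and 0.10 at 24 h, neither past the test. SKP1 overlaps TCF7 exons on the other strand.

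NKD1 (ENSG00000140807, 16:50548330-50649249, plus strand) and NKD2 (ENSG00000145506, 5:1008829-1038943, plus strand) are the naked cuticle homologues, Dishevelled-binding feedback inhibitors. With FHT-1015 at 24 h NKD2 was 6.06, 9.46 and 8.42 CPM in DMSO and 3.41, 3.75 and 3.29 CPM with the drug in 92-1. In MEL202 it was 8.93, 4.77 and 6.68 against 2.42, 2.97 and 3.91 CPM, and in MP41 23.4, 33.9 and 17.6 against 7.45, 7.39 and 8.28 CPM. No groups overlapped, and NKD2 fell 2.32-fold in 92-1 (-1.22 ± 0.23, adjusted p 0.000232), 2.17-fold in MEL202 (-1.12 ± 0.31, adjusted p 0.0211) and 3.08-fold in MP41 (-1.62 ± 0.21, adjusted p 4.89e-05). In MEL202 the call was lost without replicate 1 or 3 of DMSO or replicate 1 or 2 of FHT-1015 at 24 h (up to 0.109). Leaving out DMSO replicate 2 at 24 h in MP41 gave a log2 value of -1.40.

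NKD1 fell at 24 h in 92-1, from 11.4, 9.03 and 10.9 to 3.902, 4.32 and 4.67 CPM (-1.30 ± 0.17, adjusted p 9.62e-06). In MP41 it fell from 6.299, 10.9 and 5.74 to 2.43, 3.73 and 2.4 CPM (-1.34 ± 0.27, adjusted p 0.00162). In MEL202 the groups overlapped, at 3.47, 7.39 and 4.42 against 3.22, 3.63 and 2.84 CPM (-0.62 ± 0.46, adjusted p 0.405). At 4 h neither NKD gene passed in any line, with log2 values of 0.02, 0.52 and -0.19 for NKD1 and 0.27, 0.17 and 0.06 for NKD2 in 92-1, MEL202 and MP41. With IDE196 neither passed at either time: NKD1 had 0.25 at 4 h and 0.06 at 24 h, and NKD2 -0.09 and -0.20. An antisense transcript, AC007608.1, lies over NKD1 exons.

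ZNRF3 (ENSG00000183579, 22:28883592-29057487, plus strand), the membrane ubiquitin ligase that is the target of R-spondins together with RNF43, fell with both drugs in 92-1. With FHT-1015 it was 20.96, 21.7 and 20.97 CPM in DMSO against 13.3, 12.1 and 11.4 CPM at 4 h (-0.81 ± 0.11, adjusted p 3.84e-05). At 24 h it was 23.4, 20.4 and 22.1 against 7.87, 10.1 and 8.92 CPM, a 2.497-fold fall (-1.32 ± 0.11, adjusted p 8.43e-08). No libraries overlapped at either time. In MEL202 at 24 h it fell from 14.5, 22.1 and 17.1 to 5.49, 5.897 and 5.82 CPM (-1.61 ± 0.26, adjusted p 0.000803), and in MP41 from 31.3, 45.2 and 24.9 to 21.2, 16.6 and 16.99 CPM (-0.81 ± 0.19, adjusted p 0.0046; -0.60 when DMSO replicate 2 was left out). At 4 h the values in MEL202 (-0.03) and MP41 (0.36) did not pass, though in MP41 every treated library lay above DMSO. The difference among the lines at 4 h gave an adjusted p of 0.0521. With IDE196, ZNRF3 fell from 34.9, 33.3 and 28.3 to 19.3, 19.6 and 16.8 CPM at 4 h (-0.80 ± 0.11, adjusted p 5.21e-05) and from 34.7, 34.1 and 33.2 to 26.1, 24.1 and 22.2 CPM at 24 h (-0.54 ± 0.11, adjusted p 0.000284).

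RNF43 (ENSG00000108375, 17:58352500-58417595, minus strand) was measurable in MP41 and barely elsewhere. In MP41 it was 3.31, 6.55 and 4.29 CPM in DMSO and 2.48, 2.14 and 3.02 CPM with FHT-1015 at 24 h (-0.81 ± 0.30, adjusted p 0.0488), and 1.78, 1.96 and 1.03 against 2.31, 3.005 and 2.04 CPM at 4 h (0.62 ± 0.32, adjusted p 0.942). The groups did not overlap at either time, and lay in opposite order. The 24 h call was at the threshold and was lost without the filter on low counts, with the replicate block, with only the 6 samples compared (up to 0.0818), and without any 1 of 7 libraries (replicates 1 and 2 of DMSO and replicate 2 of FHT-1015 at 4 h, replicate 2 of DMSO and replicates 1, 2 and 3 of FHT-1015 at 24 h; up to 0.175). In 92-1 with IDE196 at 24 h it rose from 0.466, 0.353 and 0.136 to 1.21, 0.788 and 1.55 CPM, or 3 to 10 reads against 15 to 26 (1.83 ± 0.49, adjusted p 0.00375). At 4 h with IDE196 it was 0.19, with overlap. Exons of RNF43 are shared with SUPT4H1 and AC004687.2 on the same strand and with TSPOAP1-AS1 on the other, so its count is uncertain.

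**Figure D4:**
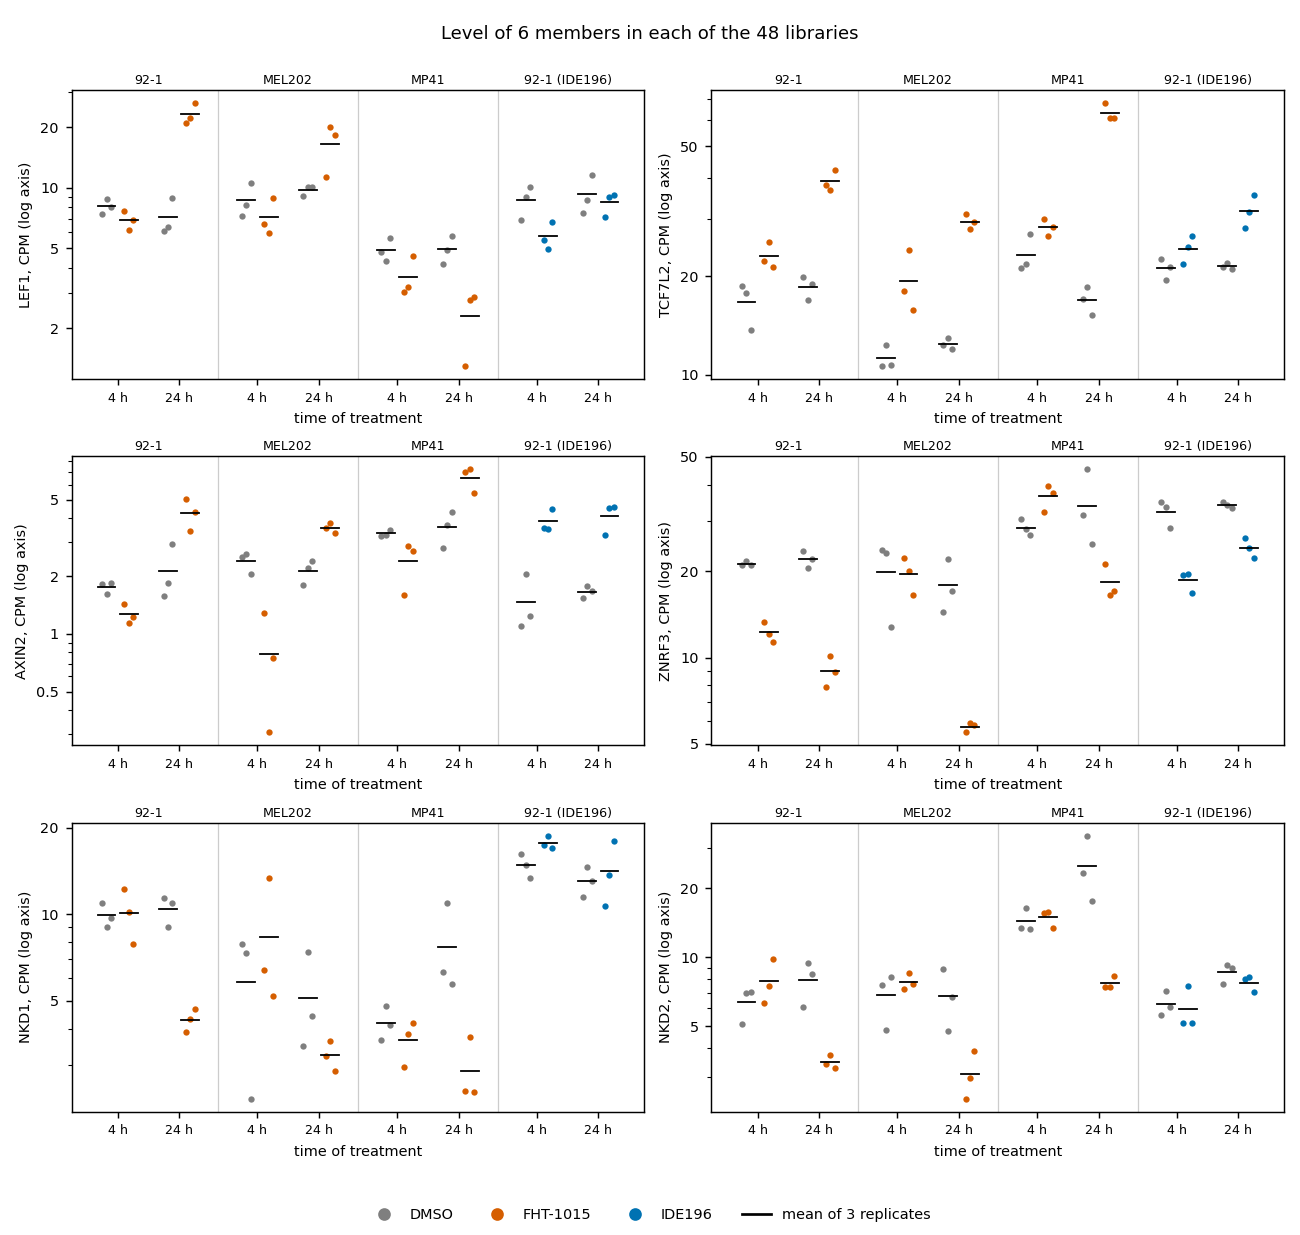
LEF1, TCF7L2, AXIN2, ZNRF3, NKD1 and NKD2 in CPM on log axes in each of 48 libraries, by line, time and treatment; bars are means of 3 replicates. With FHT-1015 at 24 h TCF7L2 lies above DMSO and ZNRF3 and NKD2 below it in each line, while LEF1 lies above DMSO in 92-1 and MEL202 and below it in MP41.

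The IDE196 comparison included all 10 members in its counts. At 4 h, 2 of 10 rose (CXXC4 and AXIN2), where 6.89% of genes rose, and 2 of 10 fell (LEF1 and ZNRF3), where 9.3% fell; leaving out IDE196 replicate 2 at 4 h gave 2 members in place of 4. At 24 h, 5 of 10 rose (DACT1, RNF43, AXIN2, CXXC4 and TCF7L2), where 28.7% of genes rose, and 1 of 10 fell (ZNRF3), where 29.4% fell. The 24 h count of 6 held without any 1 of the 12 libraries.

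The FHT-1015 effect at 24 h differed from that at 4 h in 6 of 7 members in 92-1, where 45.5% of genes differed, in 2 of 7 in MEL202, where 6.89% did, and in 6 of 8 in MP41, where 18.6% did. AXIN2 and ZNRF3 differed in each line. For ZNRF3 the log2 difference was -0.51 ± 0.16 (adjusted p 0.0148) in 92-1, -1.58 ± 0.36 (adjusted p 0.0183) in MEL202 and -1.17 ± 0.27 (adjusted p 0.00816) in MP41. For NKD2 it was -1.49 ± 0.31 (adjusted p 0.000996) in 92-1 and -1.68 ± 0.29 (adjusted p 0.00136) in MP41. DESeq2 gave 4 members in MEL202. With edgeR its count of 2 became 1 when DMSO replicate 1 or 3 at 24 h was left out, and 0 when DMSO replicate 2 or any of the FHT-1015 replicates at 24 h was. In MP41 the differences of NKD1 (-1.15 ± 0.38, adjusted p 0.0494) and RNF43 (-1.43 ± 0.44, adjusted p 0.0375) were lost without single libraries, 9 of 12 for NKD1 and 7 of 12 for RNF43 (up to 0.116 and 0.0983). The NKD1 difference was also lost with library size alone and without the filter on low counts (up to 0.0538). For NKD1 the libraries were all but DMSO replicate 3 at 24 h, FHT-1015 replicate 1 at 4 h and FHT-1015 replicate 2 at 24 h. For RNF43 they were DMSO replicates 1 and 3 and FHT-1015 replicates 1 and 2 at 4 h, and DMSO replicate 2 and FHT-1015 replicates 1 and 2 at 24 h. In MEL202 the adjusted p of the ZNRF3 difference reached 0.0597 without single libraries.

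Across the 3 lines, the FHT-1015 effect differed in 2 of 8 members at 24 h (LEF1 and TCF7L2), where 12% of 18395 genes differed, and in 0 of 8 at 4 h by edgeR, where 1.38% of genes differed, 1783 genes had an unadjusted p under 0.05 and DESeq2 called 1 member. The 4 h count was 1 without any 1 of 9 libraries, 7 of MEL202 (DMSO replicates 1, 2 and 3 and FHT-1015 replicates 2 and 3 at 4 h, DMSO replicates 1 and 2 at 24 h) and 2 of MP41 (DMSO replicates 2 and 3 at 24 h), and the 24 h count dropped to 1 with the first FHT-1015 library of MP41 at 24 h left out and with no filter on low counts.

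In 92-1 the effects of the 2 drugs, each against its own DMSO, were compared in a fit of 24 libraries (16917 genes). At 4 h they differed in 2 of 8 members, where 24.6% of genes differed. AXIN2, at -0.49 with FHT-1015 and 1.38 with IDE196, had a difference of -1.87 ± 0.38 (adjusted p 0.000559). TCF7 had -0.57 ± 0.17 (adjusted p 0.0169), which was lost without the filter on low counts (0.065) and without replicate 2 of the FHT-1015 DMSO set, replicate 6 of the IDE196 DMSO set or replicate 2 of IDE196 at 4 h (up to 0.0599). At 24 h they differed in 7 of 8 members, where 33.0% of genes differed. LEF1 (1.88 ± 0.26, adjusted p 1.51e-06) and TCF7L2 (0.54 ± 0.16, adjusted p 0.0118) had the higher effect with FHT-1015. RNF43 (-2.33 ± 0.69, adjusted p 0.00957), NKD1 (-1.36 ± 0.24, adjusted p 6.39e-05), NKD2 (-1.02 ± 0.28, adjusted p 0.00663), ZNRF3 (-0.78 ± 0.15, adjusted p 0.000193) and TCF7 (-0.54 ± 0.17, adjusted p 0.0167) had the lower one. The 24 h TCF7 difference was lost without the filter (0.0523) and without replicate 2 of the FHT-1015 DMSO set or replicate 4 of the IDE196 DMSO set at 24 h (up to 0.0722). The RNF43 difference rested on 3 to 11 reads per library of the FHT-1015 experiment at 24 h and was -1.68 with the sum of the stranded columns. AXIN2, which rose with both, differed by -0.27 ± 0.36 (adjusted p 0.628). The described values of CXXC4 were 4.48 with FHT-1015 and 1.24 with IDE196 at 24 h, and those of DACT1 3.00 and 3.67. The drugs were run with separate DMSO sets, so drug and library set cannot be told apart beyond the subtraction of each DMSO.

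Of 97 other WNT pathway genes in 6 lists, also chosen with earlier results known, 65 to 70 were tested in each comparison. With FHT-1015 at 24 h, 24 rose and 27 fell of 65 in 92-1, where 29.2% of all genes rose and 31.4% fell (median log2 fold change -0.08, against -0.0008 over all genes). In MEL202 13 rose and 9 fell of 70, where 8.69% and 10.1% of genes did (0.18 against -0.01), and in MP41 12 rose and 16 fell of 65, where 17.4% and 18.7% did (-0.15 against 0.07). The 12, the 65 and the median of MP41 include the ligand WNT11. It passed the filter on low counts there only through the libraries with FHT-1015 at 24 h. At 4 h, 7 rose and 22 fell of 65 in 92-1, where 12.9% and 16.7% of genes did. In MEL202 3 rose and 0 fell of 70 at 4 h, where 0.157% and 0.522% of genes did, and in MP41 3 rose and 0 fell of 65, where 0.0708% and 0.154% did; DESeq2 called 4 higher and 2 lower in MEL202. With IDE196, 9 rose and 16 fell of 66 at 4 h, where 6.89% and 9.3% of genes did, and 28 rose and 22 fell at 24 h, where 28.7% and 29.4% did. The 4 h count of 3 in MEL202 became 0 with FHT-1015 replicate 1 at 4 h left out and 1 without DMSO replicate 2 or 3 or FHT-1015 replicate 3 at 4 h, or DMSO or FHT-1015 replicate 3 at 24 h, and that in MP41 became 0 without any 1 of its 6 libraries at 4 h and 1 without DMSO replicate 1 or FHT-1015 replicate 2 or 3 at 24 h. The 24 h count of 12 higher in MP41, WNT11 among them, was 7 without single libraries. These were DMSO replicate 1 and FHT-1015 replicates 2 and 3 at 24 h, and FHT-1015 replicate 3 at 4 h. Among 12 nuclear partners of beta-catenin and TCF/LEF factors, 8 rose and 2 fell in 92-1 at 24 h with FHT-1015, 4 rose and 0 fell in MEL202, and 3 rose and 0 fell in MP41, against the same shares of all genes at 24 h as above, with medians of 0.71, 0.71 and 0.11. In MP41 that count and median lay near those over all genes (17.4% higher, median 0.07). Among the tested genes of 10 widely cited beta-catenin targets, 0 rose and 6 fell of 8 in 92-1, 2 rose and 4 fell of 9 in MEL202, and 2 rose and 3 fell of 8 in MP41 (medians -1.84, -0.31 and -0.52), to be read against the same shares. Several of those targets, MYC and CCND1 among them, are also controlled by many other signals.

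**Figure D5:**
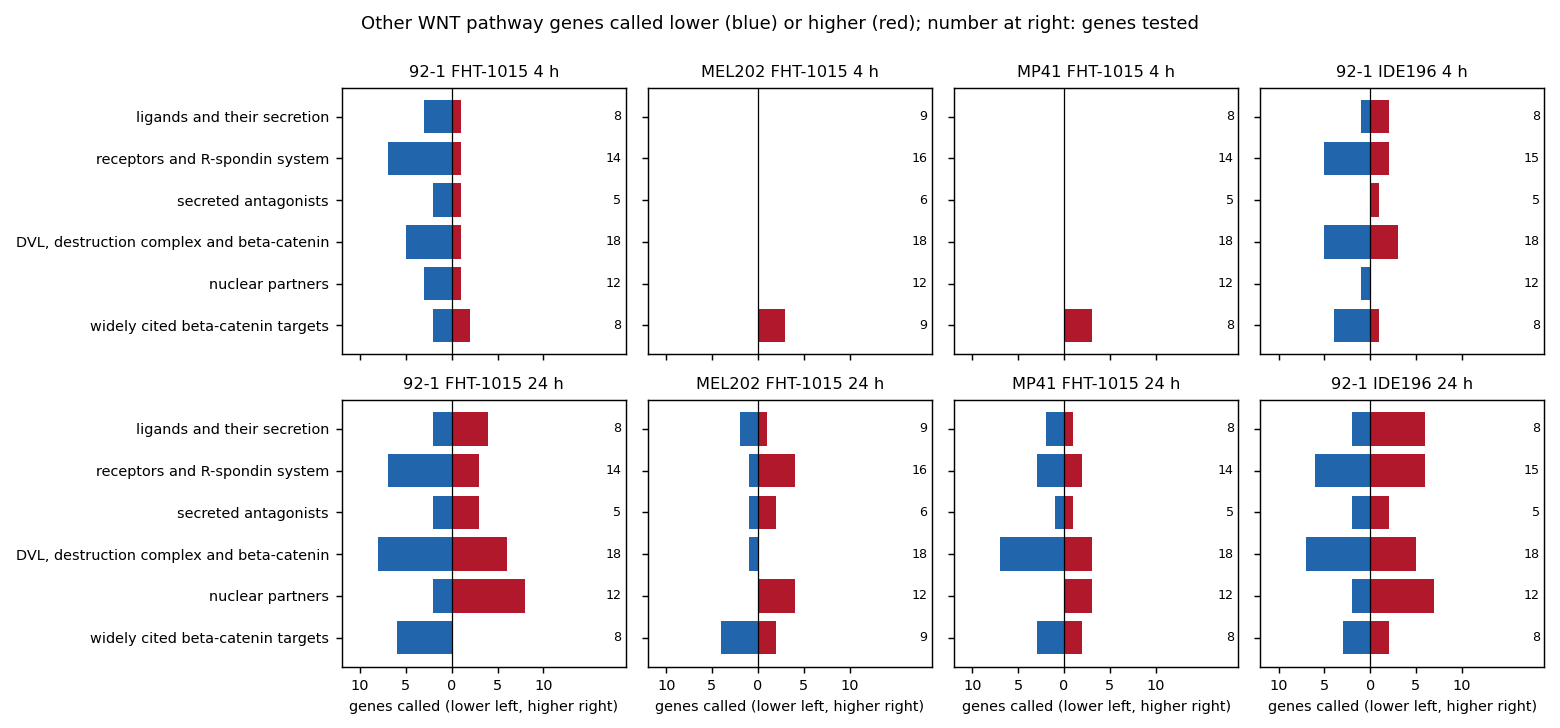
Number of other WNT pathway genes called lower (blue, to the left) or higher (red, to the right) in each of 6 lists, for each drug and time against its DMSO; the number at the right of each panel is the number tested. At 4 h MEL202 and MP41 have 3 calls each, all among beta-catenin targets, and at 24 h with FHT-1015 nuclear partners have 8, 4 and 3 genes higher in 92-1, MEL202 and MP41. The 1 ligand higher in MP41 at 24 h is WNT11, which passed the filter on low counts only through those treated libraries.

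CTNNB1, which encodes beta-catenin, fell with FHT-1015 at 24 h in each line: from 843.1 ± 94.8 (SD, n = 3) to 259.5 ± 17.1 CPM in 92-1, from 1094 ± 308.8 to 491.7 ± 25.6 CPM in MEL202 and from 2170 ± 184.2 to 1098 ± 96.2 CPM in MP41. Its log2 fold changes were -1.72 ± 0.11 (adjusted p 1.9e-09), -1.13 ± 0.22 (adjusted p 0.00251), and -0.92 ± 0.13 (adjusted p 0.000116). It also fell with IDE196 at 4 h (log2 fold change -0.63 ± 0.10, adjusted p 0.000244) and at 24 h (-1.47 ± 0.10, adjusted p 2.24e-09). With log2 fold changes in 92-1, MEL202 and MP41 in that order, the other genes lower in all 3 lines at 24 h were the ligand WNT10B (-0.86, -1.45 and -1.24), the receptor FZD5 (-2.68, -1.11 and -1.35), the secreted antagonist SFRP1 (-1.04, -3.30 and -2.22), the cell cycle gene CCND1 (-1.86, -3.43 and -2.27), MYC (-1.88, -1.76 and -1.03) and the surface glycoprotein CD44 (-3.26, -0.64 and -0.72). Those higher in all 3 were the receptors FZD2 (1.72, 1.48 and 0.86) and FZD7 (1.91, 1.31 and 1.5), the corepressors TLE2 (0.89, 1.54 and 0.61) and TLE4 (1.11, 1.56 and 1.68) and CTNNBIP1 (1.61, 1.10 and 0.47), an inhibitor of the beta-catenin and TCF interaction. The ligand WNT11 rose in 92-1 (0.73) and MEL202 (2.09). In MP41 it passed the filter on low counts only through the libraries with FHT-1015 at 24 h (0.54 to 1.32 CPM, against at most 0.562 CPM in the other groups), so no test of it is given there. The WNT11 call in 92-1 was lost without replicate 1 of DMSO at 24 h (adjusted p 0.073). Calls of FZD5, CD44 and WNT11 in MEL202 and of FZD2, TLE2, CTNNBIP1 and CD44 in MP41 were each lost without at least 3 single libraries, 11 of 12 for CTNNBIP1. With only the 6 samples compared, FZD2, TLE2, CTNNBIP1 and CD44 were not called in MP41. Without the filter on low counts the calls of FZD5 and CD44 in MEL202 and of CTNNBIP1 in MP41 were lost. That of FZD5 was also lost with library size alone, the stranded sum and the replicate block (up to 0.0552).

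At 4 h with FHT-1015, MYC was higher in the 3 lines, with log2 fold changes of 0.53 ± 0.14 (adjusted p 0.00823) in 92-1, 0.96 ± 0.19 (adjusted p 0.0367) in MEL202 and 0.77 ± 0.12 (adjusted p 0.0171) in MP41, before the lower values at 24 h. TBX3 was higher in MEL202 (1.49) and MP41 (0.84), and TNFRSF19 in 92-1 (2.23) and MEL202 (1.15). In MEL202 none of the 3 was called with only the 6 samples compared (adjusted p up to 0.552), those of TNFRSF19 and MYC were also lost with the replicate block (0.0621 and 0.058), and calls were lost without single libraries, 8 of 12 for TNFRSF19, 9 of 12 for MYC and FHT-1015 replicate 1 at 4 h for TBX3. In MP41 the MYC call was lost without any 1 of the 6 libraries at 4 h (up to 0.158), and that of TBX3 without any library but DMSO replicates 2 and 3 and FHT-1015 replicate 1 at 24 h (up to 0.263) and with the replicate block (0.0509). Among the 97 genes, at a mean of at least 1 CPM, the largest rises with IDE196 were TBX3 (1.24), CXXC5 (1.00) and FZD2 (0.98) at 4 h and the ligands WNT4 (2.36) and WNT11 (1.91) and TBX3 (1.80) at 24 h. The largest falls were CCND1 (-1.89), FZD7 (-1.47) and MYC (-0.98) at 4 h and FZD7 (-1.87), WNT10B (-1.79) and MYC (-1.76) at 24 h. At 24 h in 92-1, FZD7 rose with FHT-1015 (log2 fold change 1.91 ± 0.13, adjusted p 7.15e-09) and fell with IDE196 (-1.87 ± 0.11, adjusted p 4.22e-10).

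Likeness to a member was measured as Pearson's r of mean log2 CPM over the 16 groups, among 14115 protein-coding genes. These points share lines, DMSO samples and library sets, and the values are a description. Closest to DACT1 were HHAT (0.94), FZD1 (0.94) and NBPF3 (0.93). Closest to CXXC4 were MTA3 (0.96), MIA2 (0.95) and RSPH1 (0.94). Closest to AXIN2 were GKAP1 (0.91), ZKSCAN4 (0.90) and NXPH3 (0.90), and to LEF1 they were DKK1 (0.91), GSAP (0.90) and PAX6 (0.90).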

How the data were processed

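Poly-A RNA libraries were made with a kit that does not mark strand, per the labels' protocols. The authors deposited, for each of 48 samples, a table of raw read counts per gene for 58870 genes, and the column that ignores strand was used; the shares of stranded reads assigned to the first strand were 49.73 to 50.11%. Per the submitters' processing notes the build was hg38 and limma was among the tools; the aligner and annotation are not given in the sources used here. Of the gene identifiers, 58552 were found in GENCODE 29 (GRCh38), which gave positions and exon lengths. Rows for reads outside genes or not assigned (13.72 to 18.93% of reads) and 92 spike-in rows, all at 0, were left out of library sizes and tests.

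Groups were taken from the labels. CPM values, each gene's share of the reads in genes on the usual CPM scale, were computed from the deposited counts with library sizes scaled by TMM. Each of the 4 experiments (12 samples) was fitted by itself with edgeR 4.0.16 (R 4.3.3): filterByExpr, quasi-likelihood fit and test, Benjamini-Hochberg adjustment over all genes tested in a comparison, and a threshold of 0.05. Further fits covered the 3 lines with FHT-1015 (36 samples), both drugs in 92-1 (24) and all DMSO samples (24). The labels call the samples biological replicates without saying that they were separate cultures, so p-values measure the spread between these samples. The lowest chi-square per gene between replicates of a group was 4.18, so no library was counted as deposited more than once.

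The members and lists were chosen with earlier results of these data known; DACT1 and CXXC4 enter no test and no count of members that uses libraries of the FHT-1015 experiments. Named genes were the 10 members; of 97 other pathway genes, those called in 1 direction in all 3 lines at 24 h, or in at least 2 lines at 4 h, with FHT-1015, and with IDE196 the 3 called genes with the largest rise and the 3 with the largest fall at a mean of at least 1 CPM; and for DACT1, CXXC4, AXIN2 and LEF1 the 3 genes of highest r, from log2 CPM with a prior count of 2. Alternatives were library size alone, relative log expression scaling, DESeq2 1.42.0, no filter on low counts, the sum of both stranded columns, only the 6 samples compared, a replicate block, and leaving out each library.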

Additional observations from a re-analysis of the deposited data

Results flagged for a closer look

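The effect of FHT-1015 at 24 h differed from that at 4 h, by a test of the difference itself, for 14 combinations of member and line. Of all genes tested, 45.5% differed in 92-1, 6.89% in MEL202 and 18.6% in MP41. In 92-1 the log2 differences (24 h minus 4 h effect) were 1.48 for AXIN2, 1.94 for LEF1, 0.61 for TCF7L2, -1.31 for NKD1, -1.49 for NKD2 and -0.51 for ZNRF3. In MEL202 they were 2.40 for AXIN2 and -1.58 for ZNRF3, both lost without single libraries (adjusted p up to 0.0663 and 0.0597). In MP41 they were 1.37 for AXIN2, 1.69 for TCF7L2, -1.15 for NKD1, -1.68 for NKD2, -1.17 for ZNRF3 and -1.43 for RNF43, of which those of NKD1 and RNF43 were lost without single libraries, and that of NKD1 also with library size alone or no filter on low counts. With IDE196, 1 of 10 members differed between the times, where 30.7% of genes did: DACT1, by 2.65. The FHT-1015 effect at 24 h differed among the 3 lines for LEF1 (adjusted p 3.48e-06, edgeR's quasi-likelihood F-test) and TCF7L2 (adjusted p 0.0159, but 0.146 without the filter on low counts and 0.0511 without FHT-1015 replicate 1 at 24 h in MP41).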

How the results depend on the processing

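Of the members' values, 135 of 135 kept their direction and their side of the threshold with relative log expression scaling, 133 with DESeq2, 132 each with library size alone and with the sum of the stranded columns, 127 without the filter on low counts, and 71 of 76 with only the 6 samples compared. The replicate numbers were not taken to pair the samples: the deviations of same-numbered samples correlated above 0.1 in 3 of 18 pairs (-0.258 to 0.423). In 11 of 18 the best match was the own number, 6 of 6 in MP41, 3 of 6 in 92-1 and 2 of 6 in MEL202, which for MP41 is a hint of pairing from the data and not from the labels. With the replicate block 78 of 79 values of members and 58 of 62 of the named pathway genes stayed, and the count of members differing among lines at 4 h was 1. The same count was 1 with DESeq2 and 1 with the stranded sum. DESeq2 gave 2 members for MEL202 at 4 h, 4 for the time difference in MEL202 and 4 for DMSO time in MP41, where no filter gave 3. With only the 6 samples compared, 4 members were called in MP41 at 24 h. With library size alone 1 member differed between the DMSO sets of 92-1. Without the filter, 1 member differed among lines at 24 h and 1 between drugs at 4 h. Directions turned for NKD1 in 92-1 at 4 h (-0.013, stranded sum), ZNRF3 in MEL202 at 4 h (0.021, library size alone) and RNF43 with IDE196 at 4 h (-0.084, stranded sum), none of them called. The cause of these shifts was not tested.

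Leaving out each library in turn, the counts ranged from 2 to 4 in MEL202 at 24 h, 0 to 2 for its time difference, 0 to 5 for DMSO time in MP41, 2 to 4 with IDE196 at 4 h, 0 to 1 and 1 to 3 among lines at 4 and 24 h, 1 to 2 between drugs at 4 h and 1 to 3 between the DMSO sets. Uncalled log2 values crossed 0 with FHT-1015 for NKD1 in 92-1 at 4 h (-0.144 to 0.154); in MEL202 at 4 h for CXXC4 (-0.079 to 0.597), TCF7 (-0.584 to 0.127), NKD1 (-0.035 to 0.822), NKD2 (-0.041 to 0.327) and ZNRF3 (-0.261 to 0.133), and at 24 h for TCF7 (-0.258 to 0.113); in MP41 at 4 h for CXXC4 (-0.048 to 0.382) and TCF7 (-0.117 to 0.078), and at 24 h for TCF7 (-0.283 to 0.182). With IDE196 they did so for NKD2 (-0.289 to 0.028) and RNF43 (-0.023 to 0.424) at 4 h and for LEF1 (-0.326 to 0.002), TCF7 (-0.005 to 0.172) and NKD1 (-0.153 to 0.226) at 24 h. Low counts limit RNF43 in 92-1 and MEL202, AXIN2 in every line, CXXC4 in DMSO and DACT1 in 92-1.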
